A study of Homo sapiens with 32 samples.

Results

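Salinomycin (Sal) was added to dasatinib (Das) in MDA-MB-468 cells for 24 h, and the 4 libraries of the combination (S + D) were compared with the 4 libraries of Das alone at the same time point. These 8 libraries were chosen by their labelled treatment and time from the 32 of the whole RNA-seq experiment, and no measured value was used to choose them. MDA-MB-468 is an established line of triple-negative breast cancer, grown here as a bulk culture of 1 line. The S + D cells received 0.5 μM Sal with 15 μM Das, the Das cells received 15 μM Das alone, and both groups carry the same genetic background, so that Sal is what separates them. The control cells received PBS and the Sal cells 0.5 μM Sal without Das, and their 8 libraries of 24 h were used to set the response to Sal in the presence of Das beside the response in its absence.

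Sal is a polyether antibiotic that carries potassium and other monovalent cations across membranes, and it is known for its activity against breast cancer stem cells. Das blocks the tyrosine kinases of the SRC and ABL families and is an approved drug for leukaemia. Several programs of gene expression report stress in the compartments that an ionophore can reach. Unfolded protein in the endoplasmic reticulum (ER) activates the sensors IRE1, PERK and ATF6, which raise chaperones and degradation factors. The kinase PERK and others also act through the factor ATF4, which turns on genes of amino acid supply, and low sterol in the ER membrane activates SREBP2. Entry into S phase needs cyclin D and cyclin E, which free the E2F factors that drive the genes of DNA replication.

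The authors deposited raw counts of reads per gene. Total counts ran from 25692561 to 40576754 with Das and from 29616013 to 33390639 with S + D. The labels call the samples of a group biological replicates, 3 of them with a number and 1 without (given below as the unnumbered library). The study describes the experiments as performed independently. The unnumbered library of each group stood apart. In a principal component analysis of the 8 libraries, the first component (43.1% of the variance) held the unnumbered libraries at -49.3 and -57.2 and the numbered ones between 14.5 and 25. The second component (30.9%) held Das between -34.1 and -19.5 and S + D between 23.7 and 27.9. Counts are therefore given from all libraries of 24 h, from the same with the replicate as a block, and from the numbered libraries alone. Epithelial markers were present, with EPCAM between 211 and 296 counts scaled to the library total (CPM) and EGFR between 2869 and 5900 CPM over the 8 libraries. Of the receptors that define triple-negative disease, PGR stood at 0.038 CPM or below, ESR1 between 5.24 and 8.26 CPM, and ERBB2 between 142 and 195 CPM. The 15 markers of other cell types that were found in the table summed to 46.8 to 65.3 CPM with Das and 43.7 to 71.2 CPM with S + D, of which COL1A1 made up 41.9 to 69.6 CPM. The blood and fibroblast markers LYZ, HBB and COL1A2 had 0 counts in all 8 libraries. In a bulk sample, fewer cells of one kind and less RNA per cell cannot be told apart.

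Adding Sal changed genes in both directions, and most changes were small. Of 16357 genes tested with edgeR's quasi-likelihood test, 659 (4.03%) were higher and 729 (4.46%) lower in S + D than in Das at a Benjamini-Hochberg adjusted p under 0.01, the threshold used below for single genes. With the replicate as a block, 1760 (10.8%) were higher and 1835 (11.2%) lower. The numbered libraries alone gave 2201 (13.5%) and 3150 (19.4%), and DESeq2 gave 967 (6.39%) and 1299 (8.59%). The counts of each gene list below stand against these shares, and counts in parentheses follow the order of those before them. When an absolute log2 fold change above 1.5 was also required, 22 genes (0.134%) were higher and 30 (0.183%) lower. These counts became 56 and 47 with the block and 47 and 57 in the numbered libraries. All 52 genes past both cutoffs were also past them with the block, and 42 in the numbered libraries. Each of the 16 libraries of the fit was also left out in turn, which moved many counts. Without Das replicate 3 the higher count past both cutoffs fell to 14, and without the unnumbered Sal library it rose to 48 and the lower count to 42. At the adjusted p alone, 347 genes were higher and 351 lower without S + D replicate 1, against 948 and 1217 without the unnumbered Sal library. The ranges given for lists with 1 library left out cover these 16 fits. The median log2 fold change over all genes tested was 0.0022.

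**Figure D1:**
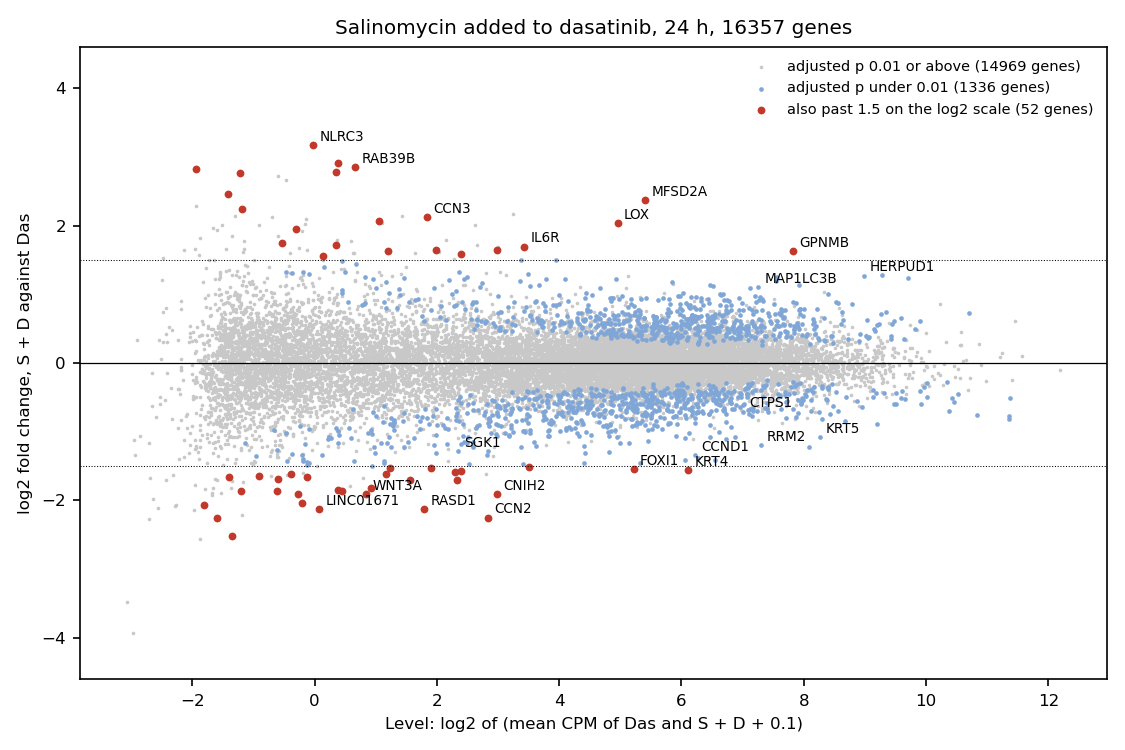
Each point is 1 of 16357 genes, placed by its level (log2 of the mean CPM of Das and S + D plus 0.1) and its log2 fold change in S + D against Das at 24 h, with coloured points past the thresholds in the key. The largest rises and falls, such as NLRC3 and RASD1, lie among genes of low level, while HERPUD1, MAP1LC3B, CCND1 and RRM2 changed at higher levels.

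Among the genes past both cutoffs whose groups did not overlap, the 10 with the largest rise include a lipid carrier, secreted matrix proteins and a cytokine receptor. Values are CPM and are given for the unnumbered library first and then for replicates 1 to 3. MFSD2A (chr1:40420784-40435640, GRCh37), which carries lysophospholipids into cells, stood at 19.6, 12.0, 12.3 and 10.8 with Das and at 116, 56.4, 56.9 and 54.6 with S + D (log2 fold change 2.37, SE 0.36, adjusted p = 0.000435). The unnumbered library was the highest of both groups, and the lowest S + D library was above the highest Das library. LOX, the lysyl oxidase that crosslinks collagen and elastin, stood at 18.7, 9.02, 9.92 and 10.7 with Das and at 87.4, 39.0, 35.6 and 37.4 with S + D (log2 fold change 2.04, SE 0.44, adjusted p = 0.00483). Again the unnumbered libraries were high in both groups, which did not overlap. IL6R, the receptor of interleukin-6, stood at 6.20, 4.54, 5.13 and 4.26 and then at 21.8, 15.0, 14.7 and 13.8 (log2 fold change 1.69, SE 0.28, adjusted p = 0.000794). ACSS1, a mitochondrial acetyl-CoA synthetase, stood at 3.04, 4.37, 4.13 and 3.69 and then at 11, 12.8, 11.6 and 11.9 (log2 fold change 1.64, SE 0.20, adjusted p = 9.93e-05). In ACSS1 the unnumbered libraries were the lowest of their groups, and every S + D library was above every Das library. The other 6 genes were of low level. NLRC3, a negative regulator of innate immune signalling, was at 0.176 ± 0.0384 (SD, n = 4) with Das and 1.60 ± 0.260 with S + D (log2 fold change 3.18). RAB39B, a small GTPase of vesicle traffic, was at 0.358 ± 0.0912 and 2.61 ± 0.759 (2.85). CCN3, a secreted matricellular protein, was at 1.30 ± 0.188 and 5.64 ± 2.29 (2.12). The homeobox factor NKX6-1 was at 0.760 ± 0.236 and 3.19 ± 0.840 (2.06), the sodium channel subunit SCN3B at 0.553 ± 0.105 and 1.8 ± 0.340 (1.71), and GFY at 1.87 ± 0.411 and 5.83 ± 0.298 (1.65). The means of NLRC3 and RAB39B with Das were the lowest of the 6, and their fold changes carry standard errors of 0.51 for NLRC3 and 0.66 for RAB39B. The adjusted p of RAB39B (0.00757) missed 0.01 without any 1 of the 8 libraries (up to 0.0294). Those of NKX6-1, SCN3B, LOX and GFY missed it without some of them (up to 0.0214 and 0.0207 without Das replicate 1, and 0.0204 and 0.0143 without the unnumbered Das library). Outside this group and chosen after its values were seen, GPNMB, a transmembrane glycoprotein of lysosomes and melanosomes, rose from 109.8, 111, 115 and 106 with Das to 242, 387, 363 and 375 with S + D (log2 fold change 1.63, SE 0.12, adjusted p = 2.91e-06). Its lowest S + D library, the unnumbered one, was above every Das library.

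The largest falls include the matricellular protein CCN2, a ligand of the Wnt family and a regulator of G proteins. CCN2 (chr6:132269316-132272512), a target of YAP and TEAD, stood at 17.3, 9.70, 9.82 and 9.60 CPM with Das and at 2.34, 1.58, 2.86 and 3.00 CPM with S + D (log2 fold change -2.25, SE 0.43, adjusted p = 0.00213). Without S + D replicate 1 its adjusted p was 0.0106. WNT3A (chr1:228194699-228248972) stood at 2.18, 2.99, 2.85 and 2.73 CPM and then at 0.629, 0.744, 0.592 and 0.888 CPM (log2 fold change -1.90, SE 0.20, adjusted p = 2.95e-05). CNIH2, a cornichon protein that helps receptors leave the ER, stood at 14.1, 11, 12.0 and 12.4 CPM and then at 4.49, 1.83, 2.99 and 3.86 CPM (log2 fold change -1.91, SE 0.20, adjusted p = 2.95e-05). In all of these the highest S + D library was below the lowest Das library, as the selection required. RASD1, a RAS-like G protein, was at 5.62, 5.89, 6.10 and 4.34 CPM with Das and at 0.569, 1.55, 1.58 and 1.32 CPM with S + D (log2 fold change -2.13, SE 0.34, adjusted p = 0.000637). HLX, a homeobox factor, stood at 4.69, 4.57, 3.91 and 4.23 CPM and then at 0.778, 1.33, 1.94 and 1.29 CPM (log2 fold change -1.71, SE 0.24, adjusted p = 0.0003). RASD1 and HLX were low in the control, at 0.292 ± 0.191 and 0.623 ± 0.0428 CPM, so that S + D stood between the control and Das. The remaining falls were LINC01671 (log2 fold change -2.13), the type I keratin KRT9 (-1.91), the aggrecan-cleaving protease ADAMTS4 (-1.87), the GTPase activator ARHGAP25 (-1.85) and C11orf86 (-1.81), each with a mean between 1.15 and 2.81 CPM with Das. The adjusted p of KRT9 (0.00694) and ARHGAP25 (0.00925) missed 0.01 without most of the 8 libraries compared, up to 0.0204 without Das replicate 1 and 0.0336 without S + D replicate 1. Chosen after their values were seen, FOXI1, a forkhead factor of ionocytes, fell from 52.8, 56.3, 51.2 and 60.3 to 11.2, 20.3, 22.7 and 21.9 CPM (log2 fold change -1.54, SE 0.23, adjusted p = 0.000462). The keratin KRT4 fell from 73.5, 115, 112 and 112 to 18.6, 40.5, 40.2 and 40.8 CPM (log2 fold change -1.55, SE 0.24, adjusted p = 0.000572).

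Many genes of the ER stress response rose. Of 25 tested ER chaperones and genes of the unfolded protein response, 12 were higher and 1 lower in S + D, against 4.03% and 4.46% of all genes, and their median log2 fold change was 0.59. With the block 21 were higher and 1 lower, in the numbered libraries 22 and 1. HERPUD1 (chr16:56966054-56978776), a membrane component of the machinery that degrades ER proteins, stood at 338, 279, 277 and 286 CPM with Das and at 764, 697, 689 and 705 CPM with S + D (log2 fold change 1.27, SE 0.14, adjusted p = 4.82e-05). Every S + D library held more than every Das library, and replicates 1 to 3 lay close together in both groups. DNAJC3, a co-chaperone that restrains the kinase PERK, rose from 73.3, 81.8, 87.4 and 91.8 to 153, 167, 159 and 165 CPM (log2 fold change 0.95, SE 0.11, adjusted p = 7.34e-05), also without overlap. HSPA5, the main HSP70 chaperone of the ER, stood at 643, 448, 459.7 and 435 CPM and then at 1668, 1042, 1002 and 973 CPM (log2 fold change 1.24, SE 0.30, adjusted p = 0.0091). The unnumbered libraries were far above the others in both groups, and the groups did not overlap. The adjusted p of HSPA5 exceeded 0.01 when any 1 of the 8 libraries was left out (up to 0.032 without Das replicate 1) and was 2.21e-10 in the numbered libraries. Among the other members that rose were the lectin chaperone CALR (0.73), the secreted chaperone MANF (0.82), the degradation factors SEL1L (0.81) and DERL1 (0.70), the HSP70-like HYOU1 (0.72) and the sensor ERN1, which is IRE1 (0.75), all as log2 fold changes. The fall was in XBP1, the mRNA that IRE1 splices, from 1072, 756, 738 and 799 to 647, 604, 606 and 627 CPM (log2 fold change -0.44, SE 0.10, adjusted p = 0.00808). Counts per gene do not separate its spliced and unspliced forms, and its adjusted p rose above 0.01 without most of the 8 libraries compared (up to 0.0291). With 1 library left out, 9 to 16 of the 25 were higher, the most without the unnumbered Sal library.

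Some promoters of these genes carry a known sequence, shown here because members with and without it rose. The ER stress response element (ERSE) reads CCAAT, 9 further bases and CCACG, and its second form (ERSE-II) reads ATTGG, 1 base and CCACG. They were searched on both strands in the 250 bases before the start in RefSeq's promoter windows (GRCh38.p14), which matched 21 of the 25 members. ERSE was found in 6 of the 21 (28.6%), namely CALR, CANX, CRELD2, HSP90B1, HSPA5 and XBP1, and in 22 of 27305 windows of all genes (0.0806%). ERSE-II was found in 3 (14.3%), namely HERPUD1, HYOU1 and SDF2L1, and in 14 of all windows (0.0513%). The forms can share their CCACG. XBP1 holds the element and fell. The others that hold it had log2 fold changes from 0.28 for CANX to 1.27 for HERPUD1. CANX (adjusted p = 0.00204 with the block), CRELD2, HSP90B1 and SDF2L1 passed with the block but not in the fit without it. A match describes the letters and not a bound site. In the 120-base windows below, from the strand of the gene, capitals mark ERSE or ERSE-II in either orientation. They lie at chr16:56932022-56932141 (plus strand) for HERPUD1, chr22:21642114-21642233 (plus) for SDF2L1, chr9:125241344-125241463 (minus) for HSPA5 and chr22:28800570-28800689 (minus) for XBP1.
HERPUD1: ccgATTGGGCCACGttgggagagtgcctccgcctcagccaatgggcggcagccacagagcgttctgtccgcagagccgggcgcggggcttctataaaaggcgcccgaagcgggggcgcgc
SDF2L1: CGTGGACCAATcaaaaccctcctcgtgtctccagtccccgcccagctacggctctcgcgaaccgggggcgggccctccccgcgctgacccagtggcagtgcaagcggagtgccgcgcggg
HSPA5: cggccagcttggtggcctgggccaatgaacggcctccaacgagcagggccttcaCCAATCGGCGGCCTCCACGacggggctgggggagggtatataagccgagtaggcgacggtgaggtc
XBP1: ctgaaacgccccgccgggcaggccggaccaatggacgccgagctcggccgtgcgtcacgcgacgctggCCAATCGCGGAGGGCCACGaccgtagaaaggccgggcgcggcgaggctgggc

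**Figure D2:**
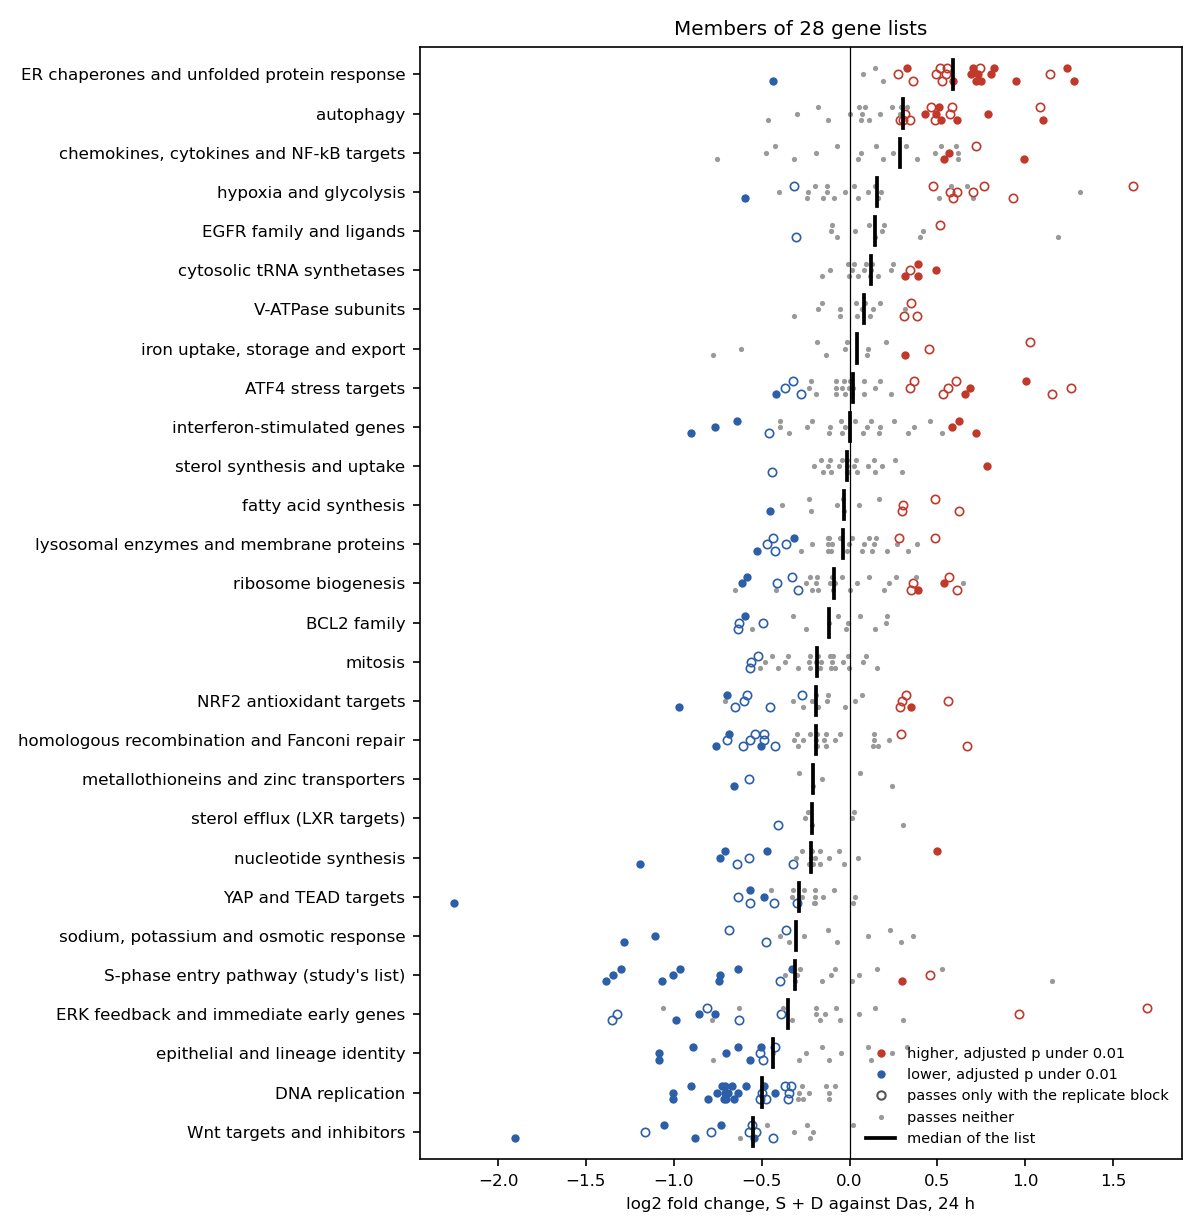
Each row is a gene list and each point a tested member, placed by its log2 fold change in S + D against Das at 24 h, with the colour giving its test and the black line the median of the list. The medians lie between -0.55 for the Wnt list and 0.59 for the ER list, and all 33 genes of DNA replication lie left of 0.

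The vesicle coats that carry proteins between the ER and the Golgi rose too. This list of 33 genes was written after their values had been seen, so its count is a description. Of its members 16 were higher and 1 was lower (19 and 1 with the block and in the numbered libraries), with a median log2 fold change of 0.38. The higher count ranged from 10 without S + D replicate 1 to 17 without the unnumbered Sal library. ARF4, a small GTPase that recruits coats at the Golgi, stood at 364, 347, 358 and 384 CPM with Das and at 822, 925, 861 and 911 CPM with S + D (log2 fold change 1.28, SE 0.14, adjusted p = 3.43e-05). KDELR2, the receptor that returns chaperones to the ER, rose from 583, 605, 618 and 587 to 873, 964, 970.0 and 966 CPM (log2 fold change 0.66, SE 0.08, adjusted p = 8.68e-05). SEC24D, a cargo adaptor of the COPII coat that leaves the ER, went from 56.1, 72.5, 73.0 and 73.8 to 121, 107, 107 and 109 CPM (log2 fold change 0.69, SE 0.092, adjusted p = 0.000173). In each of the 3 genes every S + D library was above every Das library. The COPI coat subunits COPA (0.62), COPB1 (0.56), COPB2 (0.55) and ARCN1 (0.47) rose by similar log2 fold changes. The GTPase ARF5 moved the other way, from 106, 111, 100.4 and 106 to 82.7, 79.6, 82.0 and 83.4 CPM (log2 fold change -0.37, SE 0.083, adjusted p = 0.0066), and its adjusted p reached 0.0262 without S + D replicate 1.

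Some targets of ATF4 passed the test between S + D and Das, and many did not. Of 32 tested stress targets of ATF4, 3 were higher and 1 was lower, against 4.03% and 4.46% of all genes, with a median of 0.018. With the block or in the numbered libraries 10 were higher and 4 lower. The shares of all genes were 10.8% and 11.2% with the block, and 13.5% and 19.4% in the numbered libraries. The lower count was 2 without the unnumbered control or the unnumbered Sal library. CHAC1, an enzyme that degrades glutathione, stood at 73.0, 43.4, 41.4 and 44.9 CPM with Das and at 74.0, 42.1, 45.3 and 43.6 CPM with S + D (log2 fold change 0.015, SE 0.24, adjusted p = 0.976). TRIB3, a pseudokinase that binds AKT, stood at 670.3, 483, 416 and 432 and then at 567, 480.5, 495 and 466 CPM (log2 fold change 0.0049, SE 0.17, adjusted p = 0.989). ASNS, the asparagine synthetase, stood at 339, 209, 215 and 214 and then at 271, 222, 221 and 212 CPM (log2 fold change -0.076, SE 0.16, adjusted p = 0.807). In all 3 genes the groups overlapped and the unnumbered library was the highest of each group. DDIT3, the factor CHOP, was the exception among these, at 68.4, 25.9, 24.7 and 24.4 CPM with Das and 124, 67.5, 64.7 and 62.6 CPM with S + D. Its log2 fold change was 1.15 (SE 0.45), with an adjusted p of 0.0904 without the block, 7.05e-06 with it and 3.7e-09 in the numbered libraries, where the groups did not overlap. Among the members that rose, ALDH18A1, the first enzyme of proline synthesis, went from 133, 131, 130.2 and 134 to 242, 209, 199 and 199.6 CPM (log2 fold change 0.68, SE 0.13, adjusted p = 0.00215). CTH, which makes cysteine, went from 32.9, 37.1, 37.8 and 41.2 to 47.6, 62.3, 61.1 and 63.7 CPM (log2 fold change 0.66, SE 0.11, adjusted p = 0.00112). The third was PPP1R15A, the stress-induced phosphatase subunit GADD34 (log2 fold change 1.0, adjusted p = 0.0047). JDP2, a repressor of the AP-1 family, was lower, at 47.1, 47.0, 45.5 and 46.6 and then at 30.6, 36.6, 36.7 and 35.5 CPM (log2 fold change -0.42, SE 0.081, adjusted p = 0.00253). Of 20 cytosolic tRNA synthetases, which charge tRNAs with amino acids, 4 were higher and 0 lower (5 and 0 with the block, 7 and 1 in the numbered libraries), led by EPRS1, which rose from 715, 724, 773 and 780.4 to 1045, 1067, 1043 and 1053 CPM (log2 fold change 0.49, SE 0.067, adjusted p = 0.000199). NARS1 was the second (log2 fold change 0.32, SE 0.067, adjusted p = 0.0044), and the count of the list was 1 or 2 without any 1 of the 8 libraries compared and 5 without the unnumbered Sal library. The amino acid transporter SLC38A2 stood at 236 ± 28.9 CPM (SD, n = 4) and 254 ± 29.8 CPM (adjusted p = 0.61). The letters TGATGNAAT, searched as a form of the ATF4 element, were found in 0 of 26 matched promoter windows of the list, against 250 of 27305 (0.916%). The search fixed the last base as T, so elements that end in another base were not counted. The count does not show that the list lacks the element.

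Some autophagy genes rose, and 2 lysosomal genes fell. Of 31 autophagy genes 7 were higher, against 4.03% of all genes, and 0 lower, with a median of 0.31. With the block 16 were higher and 0 lower, and in the numbered libraries 18 and 3. The higher count was 3 without S + D replicate 1, 4 without Das replicate 1 or 2, and 9 without the unnumbered Sal library. MAP1LC3B, the LC3 protein that coats autophagosomes, stood at 108, 91.1, 93.1 and 95.6 CPM with Das and at 244, 202, 187 and 199 CPM with S + D (log2 fold change 1.10, SE 0.19, adjusted p = 0.00119). The cargo receptor NBR1 stood at 102, 112, 118 and 115 and then at 153, 162, 162 and 158 CPM (log2 fold change 0.51, SE 0.068, adjusted p = 0.000161). Neither gene overlapped between the groups. SQSTM1, the receptor p62, stood at 682, 509, 479 and 477 and then at 999, 732, 758 and 726 CPM, where the adjusted p was 0.0182 without the block and 5.63e-05 with it. GABARAPL1, a relative of LC3, was at 64.1 ± 4.05 and 69.2 ± 4.28 CPM (SD, n = 4; adjusted p = 0.421). Of 30 lysosomal enzymes and membrane proteins, 0 were higher and 2 lower by edgeR's test (6 and 5 at an unadjusted p under 0.05), 2 and 6 with the block, and 5 and 6 in the numbered libraries. Those counts were 0 to 2 and 1 to 3 with 1 library left out, the most without the unnumbered Sal library. The cathepsin CTSZ fell from 127, 123, 130.1 and 112 to 74.1, 87.4, 90.7 and 89.4 CPM (log2 fold change -0.52, SE 0.10, adjusted p = 0.00217) and the glucuronidase GUSB from 76.3, 71.4, 67.3 and 65.0 to 58.7, 53.2, 58.1 and 55.1 CPM (log2 fold change -0.32, SE 0.075, adjusted p = 0.00868, up to 0.0369 without S + D replicate 1). The cholesterol exporter NPC1 stood at 73.2 ± 3.51 and 81.1 ± 4.17 CPM (adjusted p = 0.162). Of 16 subunits of the V-ATPase, the proton pump of the lysosome, 0 passed in either direction with edgeR (0 at an unadjusted p under 0.05 and 0 with DESeq2), while 3 were higher with the block and 4 in the numbered libraries. Among 12 genes of iron handling the importer SLC11A2 was higher, from 76.4, 82.1, 84.2 and 87.0 to 102, 107, 98.9 and 103 CPM (log2 fold change 0.32, SE 0.074, adjusted p = 0.00757), a call lost without any 1 of the 8 libraries (up to 0.0337). In the list 3 were higher with the block, 3 higher and 2 lower in the numbered libraries, and 2 higher without the unnumbered Sal library. The ferritin subunits passed with the block but not in the fit without it. FTH1 stood at 1221, 1313, 1141 and 1466 and then at 1299.9, 1768, 1958 and 1996 CPM (adjusted p = 0.0514, with the block 0.00154). FTL followed, with 1.03 on the log2 scale (adjusted p = 0.0117, with the block 1.69e-05). The transferrin receptor TFRC stood at 549, 637, 662 and 669 and then at 602, 561, 573 and 560.4 CPM (adjusted p = 0.314).

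Genes of cholesterol synthesis passed the test between S + D and Das at a share near that of all genes when all libraries were used. Of 23 genes of sterol synthesis and uptake 1 was higher and 0 lower, against 4.03% and 4.46% of all genes, with a median of -0.013. At an unadjusted p under 0.05 the counts were 3 and 1, and with DESeq2 1 and 0. With the block they were 1 and 1, against 10.8% and 11.2% of all genes. In the numbered libraries they were 6 and 1, against 13.5% and 19.4%. HMGCS1, the synthase that makes HMG-CoA, stood at 434, 449, 496 and 458 CPM with Das and at 383, 576, 558 and 571 CPM with S + D (log2 fold change 0.18, SE 0.18, adjusted p = 0.555). The unnumbered S + D library was the lowest of all 8, and replicates 1 to 3 were above every Das library. The squalene epoxidase SQLE (0.14, adjusted p = 0.57) and the SREBP regulator INSIG1 (0.30, 0.153) did not pass, and their groups overlapped. In the numbered libraries HMGCS1, SQLE and INSIG1 passed, with log2 fold changes of 0.25, 0.16 and 0.39. The member that passed in the fit of all libraries was STARD4, a cytosolic carrier of sterols, which rose from 55.0, 53.0, 60.6 and 53.6 to 94.3, 105, 89.7 and 92.8 CPM (log2 fold change 0.78, SE 0.16, adjusted p = 0.00316, up to 0.0132 without S + D replicate 1). Its call was also lost without the unnumbered Das library and without Das replicate 1 or 3. The SREBP element TCACNCCAC was found in 1 of 18 matched windows (5.56%), that of SREBF2, and in 239 of 27305 (0.875%). Of 13 genes of fatty acid synthesis 1 was lower, the elongase ELOVL1, from 161, 140.3, 139 and 139 to 119, 101, 102 and 101 CPM (log2 fold change -0.45, SE 0.095, adjusted p = 0.00399, up to 0.017 without S + D replicate 1), and 4 were higher and 1 lower with the block, 4 and 3 in the numbered libraries, and 3 higher without the unnumbered S + D library. The desaturase SCD stood at 572, 823, 840.0 and 859 and then at 803, 1153, 1180.2 and 1188 CPM. Its adjusted p was 0.0421 without the block and 1.5e-05 with it. The fatty acid synthase FASN stood at 1655, 2164, 1841 and 1765 and then at 1464, 1303, 1557 and 1355 CPM (adjusted p = 0.0405). Of 7 targets of the sterol sensor LXR 0 passed with edgeR (0 higher and 1 lower at an unadjusted p under 0.05; 0 and 1 with DESeq2, and 0 and 1 without the unnumbered Sal library). MYLIP, a ubiquitin ligase, had a log2 fold change of -0.41, with an adjusted p of 0.0353 without the block and 0.00923 with it. The sterol exporter ABCA1 stood at 0.629 ± 0.311 and 0.516 ± 0.151 CPM (adjusted p = 0.827).

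Genes of DNA replication and of entry into S phase fell. Of 33 replication genes 17 were lower and 0 higher, against 4.46% of all genes lower, with a median of -0.50 (24 lower with the block, 29 in the numbered libraries). All 33 had a negative log2 fold change, from -1.01 to -0.082. MCM5 (chr22:35796127-35821424), a subunit of the MCM helicase, stood at 128, 137, 127 and 130.1 CPM with Das and at 64.0, 61.2, 68.7 and 67.4 CPM with S + D (log2 fold change -1.0, SE 0.087, adjusted p = 7.5e-06). The subunit MCM2 stood at 116, 122, 110.2 and 114 and then at 60.5, 59.9, 65.8 and 60.6 CPM (log2 fold change -0.90, SE 0.082, adjusted p = 1.05e-05). MCM3 stood at 316, 303, 293 and 287 and then at 181, 178, 182 and 185 CPM (log2 fold change -0.72, SE 0.06, adjusted p = 5.05e-06). The 8 libraries of each gene formed narrow groups that did not overlap, the unnumbered library included. Other members that fell were the licensing factor MCM10 (-1.01), the catalytic subunit POLE of polymerase epsilon (-0.81), the histone chaperone CHAF1A (-0.76), the sliding clamp PCNA (-0.71) and the loader CDC6 (-0.59). Among 21 genes of nucleotide synthesis 4 were lower and 1 higher (7 and 1 with the block, 13 and 1 in the numbered libraries). RRM2, the regulated subunit of ribonucleotide reductase, fell from 221, 214, 216 and 223 to 87.2, 92.5, 101 and 101 CPM (log2 fold change -1.19, SE 0.12, adjusted p = 1.84e-05). The CTP synthase CTPS1 fell from 165, 155, 159 and 157 to 87.8, 98.2, 105 and 98.9 CPM (log2 fold change -0.71, SE 0.075, adjusted p = 3.05e-05). The thymidylate synthase TYMS changed by -0.74 on the log2 scale. The purine enzyme PPAT was the member that was higher, a call lost without any 1 of the 8 libraries (log2 fold change 0.50, adjusted p = 0.00872, up to 0.0302).

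Of 25 genes of the S-phase entry pathway 10 were lower and 1 higher, with a median of -0.31 (11 and 2 with the block, 15 and 2 in the numbered libraries). The study singled this pathway out from the 72 h libraries of the same experiment, which are not compared here. As the list comes from the same experiment, it is no independent evidence of its direction. E2F1 (chr20:32263283-32274191), the E2F factor that activates replication genes, stood at 153, 104, 94.0 and 94.6 CPM with Das and at 49.2, 39.0, 41.1 and 41.3 CPM with S + D (log2 fold change -1.39, SE 0.15, adjusted p = 2.95e-05). CCND1, the cyclin D1 that starts the passage through G1, stood at 76.7, 117, 110.2 and 124 and then at 31.7, 44.9, 47.5 and 44.6 CPM (log2 fold change -1.34, SE 0.16, adjusted p = 6.53e-05). CCNE2, a cyclin E, stood at 25.6, 30.0, 31.1 and 34.8 and then at 8.56, 14, 12.0 and 14.7 CPM (log2 fold change -1.30, SE 0.15, adjusted p = 6.53e-05). In these 3 genes each S + D library was below every Das library, with E2F1 highest and CCND1 lowest in the unnumbered library of both groups. CCNE1, the other cyclin E, fell from 24.2 ± 1.39 to 12.4 ± 0.535 CPM (SD, n = 4; adjusted p = 2.91e-06). The activator E2F2 fell from 80.9 ± 12.9 to 38.6 ± 11.2 CPM (0.000428), the repressor E2F7 from 12.5 ± 1.47 to 6.21 ± 1.03 CPM (0.000665), and MYC from 133 ± 10.7 to 79.5 ± 9.56 CPM (0.000853). CDKN1B, the inhibitor p27, was higher, at 49.4 ± 1.21 and 60.9 ± 1.62 CPM (log2 fold change 0.30, SE 0.065, adjusted p = 0.00485, up to 0.0187 without Das replicate 1). SKP2, which marks p27 for degradation, stood at 52.3 ± 2.81 and 39.8 ± 3.60 CPM, with an adjusted p of 0.01 that missed the threshold and 0.000352 with the block. ESR2, the estrogen receptor beta, had 0, 0, 6 and 2 counts in the Das libraries and 5, 5, 5 and 3 in those of S + D. A two-sided exact permutation test did not separate them (p = 0.229, where the smallest it can give is 0.0286). Of 28 genes of mitosis 0 passed in either direction with edgeR (0 higher and 7 lower at an unadjusted p under 0.05; 0 and 2 with DESeq2), with a median of -0.19. With the block 3 were lower, 17 in the numbered libraries, 5 without the unnumbered Sal library and 2 without the unnumbered S + D library. The mitotic cyclin CCNB1 stood at 127, 69.7, 65.5 and 72.4 and then at 103, 64.2, 58.7 and 60.8 CPM (adjusted p = 0.498). Of 31 genes of homologous recombination and Fanconi repair 3 were lower and 0 higher (10 and 2 with the block, 14 and 2 in the numbered libraries, 7 and 0 without the unnumbered S + D library, 5 and 0 without the unnumbered Sal library), led by the exonuclease EXO1 (-0.76, adjusted p = 0.000934) and the Fanconi protein FANCI (-0.51, 0.00159), and BRCA1 stood at 49.5 ± 4.32 and 43.4 ± 1.67 CPM (adjusted p = 0.284).

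The E2F element, read as TTTCCCGC or TTTGGCGC on either strand, was found in 10 of 28 matched windows of the replication list (35.7%) and in 5 of 19 of the S-phase list (26.3%), against 536 of 27305 windows (1.96%). The replication genes that hold it are CDT1, GINS2, LIG1, MCM3, MCM6, MCM7, PCNA, POLA1, POLE and RFC3. Of these MCM3, MCM6, MCM7, PCNA, GINS2 and POLE passed as lower. The windows printed belong to genes that hold the element and passed as lower, MCM3, MCM6 (-0.67), PCNA and E2F1. In the replication list MCM10, MCM5, MCM2 and CHAF1A fell further than MCM3, MCM6 and PCNA and are not among the holders. Some members of the list had no matched window. Capitals mark the element in either orientation, and the windows lie on the minus strand at chr6:52284797-52284916, chr2:135876476-135876595, chr20:5126623-5126742 and chr20:33686386-33686505 of GRCh38.p14.
MCM3: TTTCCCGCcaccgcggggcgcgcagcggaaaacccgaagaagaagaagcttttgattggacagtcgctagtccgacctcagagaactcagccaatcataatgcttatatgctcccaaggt
MCM6: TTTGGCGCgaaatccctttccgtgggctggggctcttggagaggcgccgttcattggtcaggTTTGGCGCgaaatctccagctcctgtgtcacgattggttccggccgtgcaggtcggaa
PCNA: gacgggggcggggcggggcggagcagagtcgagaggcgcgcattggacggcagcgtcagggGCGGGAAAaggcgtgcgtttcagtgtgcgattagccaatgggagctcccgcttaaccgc
E2F1: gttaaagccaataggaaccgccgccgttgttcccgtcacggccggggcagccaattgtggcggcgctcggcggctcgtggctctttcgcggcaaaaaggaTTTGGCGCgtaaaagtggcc

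**Figure D3:**
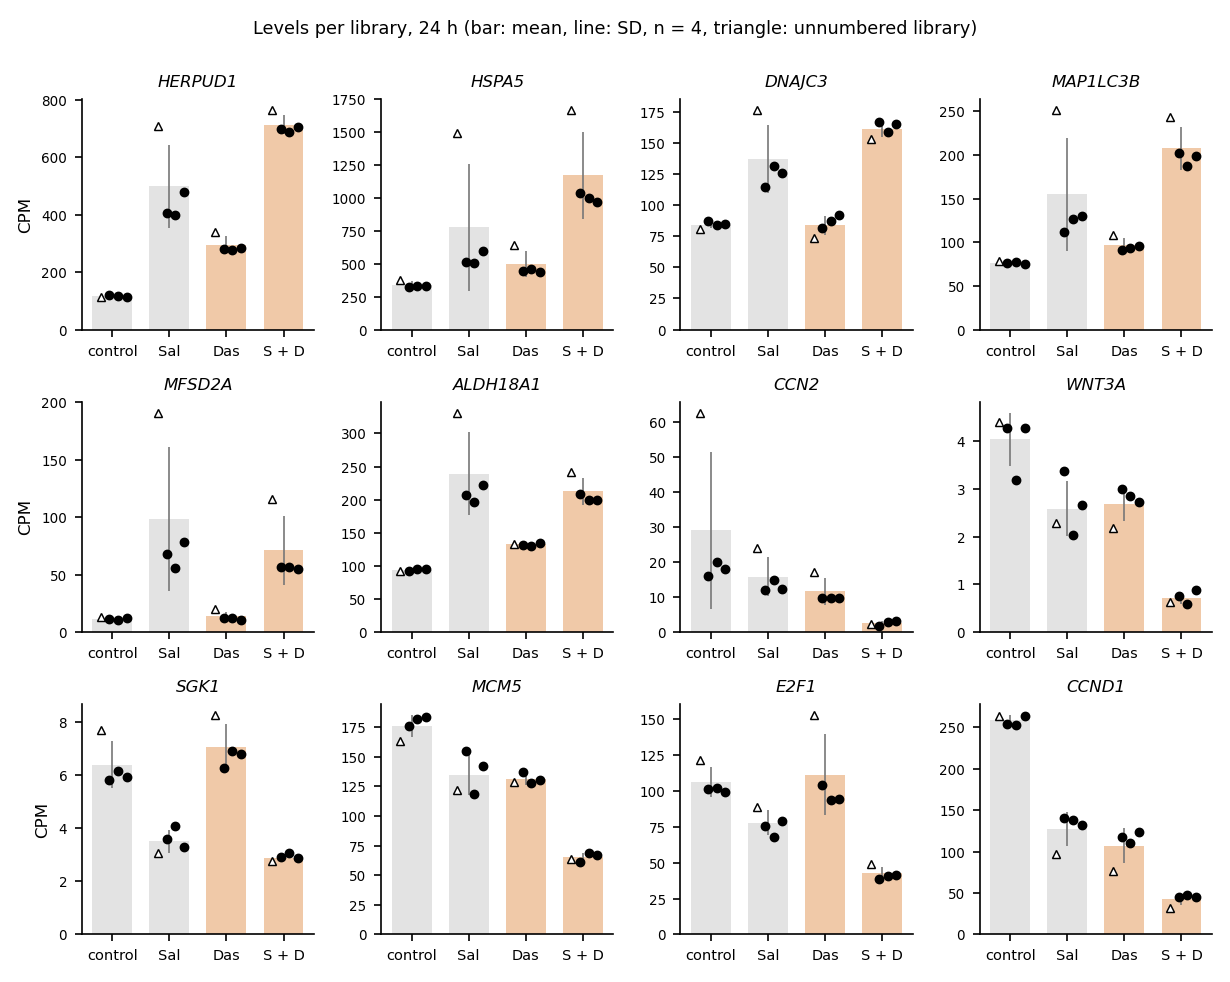
Levels of 12 genes in CPM in each library of control, Sal, Das and S + D at 24 h, where circles are replicates 1 to 3, triangles the unnumbered library, and bars and lines the mean and SD of 4 libraries. S + D lies above Das without overlap in HERPUD1, HSPA5, DNAJC3, MAP1LC3B, MFSD2A and ALDH18A1, and below it without overlap in CCN2, WNT3A, SGK1, MCM5, E2F1 and CCND1.

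Some growth signals and their targets were lower, and many did not pass the test. Of 24 genes of ERK feedback and immediate early response 3 were lower and 0 higher (8 and 2 with the block, 12 and 2 in the numbered libraries). The lower count was 1 without Das replicate 1 or S + D replicate 1 or 3, and 5 without the unnumbered S + D library. SPRY4, a feedback inhibitor of the pathway, stood at 2.67 ± 0.386 CPM with Das and 1.47 ± 0.164 CPM with S + D (SD, n = 4; log2 fold change -0.86, SE 0.16, adjusted p = 0.00226), against 26.8 ± 2.34 CPM in the control. The ephrin receptor EPHA2 stood at 21.4 ± 1.42 and 10.8 ± 2.73 CPM (log2 fold change -0.99, SE 0.21, adjusted p = 0.00391, up to 0.0164 without S + D replicate 1). EGR1, an immediate early factor, stood at 23.8, 5.10, 5.82 and 8.14 CPM and then at 10.9, 1.49, 2.47 and 1.99 CPM, with an adjusted p of 0.111 without the block, 0.00217 with it and 7.66e-07 in the numbered libraries. The phosphatase DUSP6 stood at 1.22, 2.02, 2.22 and 1.88 and then at 0.389, 1.30, 1.12 and 1.44 CPM (adjusted p = 0.112). Of 20 targets of YAP and TEAD 3 were lower and 0 higher (7 and 0 with the block, 16 and 0 in the numbered libraries), namely CCN2 above, the LIM protein AJUBA (-0.57, adjusted p = 0.00468, up to 0.018 without S + D replicate 1) and FJX1 (-0.49, 0.00859). None of them passed without S + D replicate 1, and 1 did without Das replicate 1 or S + D replicate 2 or 3. Of 18 Wnt ligands, targets and inhibitors 5 were lower and 0 higher, with a median of -0.55 (11 lower with the block, 17 in the numbered libraries). The count was 2 or 3 without any 1 of the numbered Das or S + D libraries and 9 without the unnumbered Sal library. Besides WNT3A, the ligand WNT7B stood at 91.5, 102, 89.4 and 93.6 and then at 54.7, 58.7, 55.2 and 58.0 CPM (log2 fold change -0.73, SE 0.094, adjusted p = 0.000127). AXIN2, a feedback inhibitor that Wnt signals induce, stood at 16.5, 20.3, 17.6 and 19.1 and then at 8.29, 10.1, 10.1 and 11.5 CPM (log2 fold change -0.88, SE 0.18, adjusted p = 0.00345, up to 0.0138 without Das replicate 1). Neither gene overlapped between the groups. The coreceptor LRP6 stood at 39.9, 75.9, 80.3 and 78.6 and then at 54.8, 76.0, 74.2 and 73.2 CPM, where the unnumbered libraries were low and the groups overlapped (adjusted p = 0.969). Of 13 receptors of the EGFR family and ligands 0 passed with edgeR (4 higher and 1 lower at an unadjusted p under 0.05; 0 and 1 with DESeq2, 1 and 1 with the block, 3 and 4 in the numbered libraries). Without the unnumbered control, Das or Sal library, or without Sal replicate 3, 1 was lower. EGFR itself stood at 2869, 5391, 5289 and 5900.5 and then at 3693, 4826, 4909 and 4629 CPM (adjusted p = 0.762). AREG had 1 count in the 4 Das libraries together and 0 to 5 in those of S + D (exact permutation test, p = 0.143).

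Several keratins and genes of the actin cytoskeleton fell. Of 21 genes of epithelial and lineage identity 7 were lower, against 4.46% of all genes, and 0 higher, with a median of -0.44, and 6 of the 7 were keratins. With the block 10 were lower, in the numbered libraries 12, and without S + D replicate 1 the count was 4. KRT5, a basal keratin, stood at 312, 456, 446 and 451 CPM with Das and at 136, 215, 222 and 212 CPM with S + D (log2 fold change -1.08, SE 0.17, adjusted p = 0.00063). KRT19 stood at 1745, 1685, 1654 and 1474 and then at 1160.0, 879, 1007 and 985 CPM (log2 fold change -0.70, SE 0.10, adjusted p = 0.000378). The unnumbered library was lowest for KRT5 and highest for KRT19 in both groups, and neither gene overlapped. KRT14 (-1.08), KRT8 (-0.89), KRT18 (-0.63), KRT7 (-0.50) and the cadherin CDH3 (-0.57) were lower as well. A list of 33 genes of the actin cytoskeleton, written after values had been seen, held 11 that were lower and 0 that were higher, with a median of -0.28 (18 lower with the block, 24 in the numbered libraries). It was 6 lower without any 1 of S + D replicates 1 to 3, 7 without Das replicate 3 and 15 without the unnumbered Sal library. ACTB, the beta actin, stood at 3404, 3432, 3137 and 3456 CPM and then at 1854, 1934, 1925 and 1888 CPM (log2 fold change -0.82, SE 0.065, adjusted p = 2.91e-06). The gamma actin ACTG1 stood at 2396, 2351, 2239 and 2136 and then at 1523, 1245, 1342 and 1293 CPM (log2 fold change -0.76, SE 0.086, adjusted p = 4.82e-05). Neither gene overlapped between the groups, and the unnumbered libraries lay within or near the others. The actins have many processed pseudogenes, and how the counting split reads between copies is not given in the sources used here.

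Some genes of ion balance were lower, and the lists of metals and of the antioxidant response held calls too. Of 14 genes of sodium, potassium and osmotic response 2 were lower and 0 higher (5 lower with the block, 6 in the numbered libraries). SGK1, a kinase that regulates ion channels, stood at 8.28, 6.27, 6.91 and 6.80 CPM with Das and at 2.75, 2.92, 3.06 and 2.88 CPM with S + D (log2 fold change -1.28, SE 0.13, adjusted p = 2.95e-05). KCNN4, a calcium-activated potassium channel, stood at 167, 143, 133 and 133 and then at 58.3, 64.9, 73.1 and 71.4 CPM (log2 fold change -1.11, SE 0.12, adjusted p = 4.04e-05). Neither gene overlapped between the groups. Of 7 metallothioneins and zinc transporters MT2A was lower (2 genes with the block, 4 in the numbered libraries), at 195, 218, 204 and 211 and then at 163, 119.6, 115 and 127 CPM (log2 fold change -0.66, SE 0.11, adjusted p = 0.00119). MT1X stood at 42.6, 53.4, 54.7 and 49.2 and then at 57.4, 40.2, 40.9 and 40.8 CPM (adjusted p = 0.534). Of 23 targets of the antioxidant factor NRF2 1 was higher and 2 were lower (5 and 7 with the block, 5 and 10 in the numbered libraries), against 4.03% and 4.46% of all genes. Without the unnumbered Sal library 3 were higher and 6 lower, and without most of the 8 libraries compared 0 and 1. The UDP-glucose dehydrogenase UGDH was higher (log2 fold change 0.35, SE 0.084, adjusted p = 0.00876, up to 0.0365 without the unnumbered Das library), and the aldo-keto reductase AKR1B10 (log2 fold change -0.97, SE 0.17, adjusted p = 0.00123) and the heme transporter SLC48A1 (log2 fold change -0.70, SE 0.16, adjusted p = 0.00815, up to 0.0286 without Das replicate 1) were lower. The heme oxygenase HMOX1 stood at 38.7, 21.9, 19.7 and 20.3 and then at 36.2, 20.9, 22.7 and 19.2 CPM (adjusted p = 0.953). NQO1, a quinone reductase, stood at 658, 461, 448 and 454 and then at 348, 414, 433 and 425 CPM (adjusted p = 0.0675).

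Lists of immune signals, survival factors and metabolism held up to 3 calls in either direction. Several of them exceeded the shares of all genes (4.03% higher and 4.46% lower) in at least 1 direction. Of 22 chemokines, cytokines and NF-kB targets 3 were higher and 0 lower (4 and 0 with the block, 6 and 2 in the numbered libraries). The higher count was 1 without Das replicate 1 or S + D replicate 1 or 3. TNFAIP3, the enzyme A20 that damps NF-kB, stood at 10.5, 11, 10.0 and 10.7 CPM with Das and at 28.3, 19.3, 18.9 and 17.6 CPM with S + D (log2 fold change 0.99, SE 0.15, adjusted p = 0.000371). The apoptosis inhibitor BIRC3 stood at 14.2, 15.6, 17.2 and 17.5 and then at 22.0, 25.5, 22.5 and 25.4 CPM (log2 fold change 0.57, SE 0.11, adjusted p = 0.00295, up to 0.0128 without S + D replicate 1). Every S + D library was above every Das library for both. CXCL8 stood at 1.51, 0.439, 0.438 and 0.461 and then at 1.68, 1.12, 0.724 and 0.950 CPM (adjusted p = 0.592). IL1A had 0 counts in all 16 libraries of 24 h. Interferon-stimulated genes were split, with 3 of 28 higher and 3 lower (3 and 4 with the block, 4 and 7 in the numbered libraries). The lower count was 1 without any 1 of S + D replicates 1 to 3. The RNA sensor IFIH1 (0.58), IFIT2 (0.62) and STAT2 (0.72) rose. In turn OAS1 (-0.64, adjusted p up to 0.0155 without S + D replicate 1), OAS3 (-0.77) and CMPK2 (-0.90) fell. Of 15 members of the BCL2 family 1 was lower (4 with the block, 6 in the numbered libraries, 3 without the unnumbered control, Sal or S + D library, 2 without Das replicate 2 or Sal replicate 2), the survival factor BCL2L1, at 76.0, 98.9, 88.9 and 98.2 and then at 50.7, 62.8, 63.1 and 63.2 CPM (log2 fold change -0.59, SE 0.11, adjusted p = 0.00171). The death activators BCL2L11 (adjusted p = 0.237) and BBC3 (0.728) and the survival factor MCL1 (0.7) did not pass. Of 30 genes of hypoxia and glycolysis 1 was lower, the pyruvate kinase PKM, from 1124, 1164, 1126 and 1223 to 899.9, 704, 741 and 727 CPM (log2 fold change -0.59, SE 0.088, adjusted p = 0.00038), and 0 were higher. With the block 8 were higher and 2 lower, whereas in the numbered libraries 6 were higher and 12 lower, and the median went from 0.15 in all libraries to -0.18. Without the unnumbered Sal library 2 were higher, and without the unnumbered S + D library 3 were lower. VEGFA, the vascular growth factor, stood at 342, 275, 310.0 and 271 and then at 668, 429.6, 414 and 437 CPM, without overlap (adjusted p = 0.0143, with the block 9.52e-06). The hexokinase HK2 stood at 167, 118, 124 and 113 and then at 391, 130.0, 135 and 123 CPM, where the unnumbered S + D library was far above the rest (adjusted p = 0.265). Of 32 genes of ribosome biogenesis 2 were higher and 2 lower (6 and 5 with the block, 9 and 10 in the numbered libraries, 5 and 3 without the unnumbered Sal library). The lower count was 1 without any 1 of 7 of the 8 libraries compared. GNL3 (0.39) and the polymerase I subunit POLR1B (0.54) rose, and the nucleolar proteins NOP56 (-0.58) and BYSL (-0.61, adjusted p up to 0.0298 without S + D replicate 1) fell. Of 4 tested markers of other cell types 0 passed with edgeR (1 higher and 1 lower at an unadjusted p under 0.05; 0 with DESeq2).

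The response to Sal in the presence of Das was then set against the response to Sal in its absence, which is Sal against the control and shares no library with S + D against Das. At an adjusted p under 0.01, Sal without Das raised 745 genes (4.55%) and lowered 364 (2.23%), and 1630 (9.97%) and 1425 (8.71%) with the block. The difference between the responses was tested as an interaction in the same fit, where a negative value means a rise that was smaller, or a fall that was larger, with Das. With edgeR 0 genes (0%) had a higher and 5 (0.0306%) a lower response at an adjusted p under 0.01 (464 and 781 at an unadjusted p under 0.05). DESeq2 gave 16 (0.0983%) and 123 (0.756%), the block 12 (0.0734%) and 105 (0.642%), and the numbered libraries 95 (0.584%) and 732 (4.5%). Past both cutoffs, 0 genes (0%) were higher and 2 (0.0122%) lower, and 2 and 6 with the block. The lower count was 1 without Das replicate 1, Das replicate 2, the unnumbered S + D library or S + D replicate 1, and 4 without the unnumbered Das library.

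These 2 genes were MAGED1 (chrX:51546103-51645450) and MAGEH1 (chrX:55478560-55479999), both members of the MAGE family on the X chromosome. MAGED1, an adaptor in apoptosis signalling, stood at 52.7, 56.8, 59.4 and 59.0 CPM in the control libraries and at 191, 182, 148 and 184 CPM in those of Sal. In the Das libraries it stood at 144, 149, 138 and 143 CPM and in those of S + D at 127, 120.5, 127 and 128 CPM. Sal raised it without Das (log2 fold change 1.63), while with Das the log2 fold change was -0.19 (adjusted p = 0.115). The interaction was -1.82 (SE 0.11, adjusted p = 5.87e-07). In MAGEH1 the mean was 11.9 ± 2.06 CPM for the control, 54.8 ± 6.5 for Sal, 28.5 ± 3.36 for Das and 46.2 ± 4.97 for S + D (SD, n = 4). It rose with Sal in both settings, by 2.21 without and 0.70 with Das on the log2 scale, where the adjusted p with Das was 0.00242 and 0.0103 without the unnumbered Das library (interaction -1.51, SE 0.19, adjusted p = 0.0025). The other 3 genes, named after their values were seen, were SEC24D (interaction -1.19, adjusted p = 0.000607), the COPI subunit COPG1 (-1.01, 0.000311) and the glycosyltransferase B3GNT9 (-0.96, 0.00131). COPG1 stood at 239, 232, 239.7 and 248 CPM in the control libraries and at 700.1, 603, 548 and 632 in those of Sal. It stood at 489, 454, 449 and 464 CPM in the Das libraries and at 612, 593, 588 and 589 in those of S + D, close to the Sal libraries from a higher start. B3GNT9 stood at 27.1 ± 0.501, 53.1 ± 4.31, 49.5 ± 3.83 and 49.8 ± 2.27 CPM in the same order, and its Das and S + D libraries overlapped.

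Sterol genes were the list whose response to Sal was most reduced in the presence of Das, as a median. Without Das 18 of the 23 were higher with Sal (20 with the block), with a median of 0.80, while with Das 1 was higher. The median interaction was -0.84, against -0.0093 over all genes, and was negative in all 23. By gene, 0 of 23 interactions passed with edgeR (0 higher and 21 lower at an unadjusted p under 0.05; 0 and 9 with DESeq2), 11 were lower with the block and 21 in the numbered libraries. HMGCS1 stood at 339, 191, 183 and 181 CPM in the control and at 642, 487, 546 and 517 CPM with Sal, against its Das and S + D levels above (interaction -1.11, adjusted p = 0.0969, with the block 0.0177). Das alone stood above the control for this list, with a median of 0.93 over the list on the log2 scale and 0.022 over all genes. The targets of ATF4 followed the same order, with 8 of 32 higher with Sal alone (24 with the block, median 0.49). Their median interaction was -0.47, and 0 of 32 passed with edgeR (0 higher and 6 lower with the block, 2 and 17 in the numbered libraries). Das stood above the control by a median of 0.92 over these targets. The mean of CHAC1 was 14.3 ± 1.91 CPM for the control, 34.9 ± 11.9 for Sal, 50.7 ± 14.9 for Das and 51.2 ± 15.2 for S + D (interaction -1.28, adjusted p = 0.182, with the block 0.000212). The vesicle coats rose in both settings, with 22 of 33 higher without Das (median 0.85) and 16 with it, and 2 interactions were lower (11 with the block). ARF4 stood at 155, 171, 157 and 159 CPM in the control and at 1280.4, 733, 765 and 794 CPM with Sal, so that Sal took it to similar levels from different starts (interaction -1.20, adjusted p = 0.0154, with the block 0.00116).

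The ER list rose with and without Das, with 12 of 25 and 7 of 25 higher and medians of 0.59 and 0.47. Its median interaction was 0.079, with 0 higher and 1 lower by edgeR's test. With the block 0 interactions were higher and 2 lower, and in the numbered libraries 7 and 4. HSPA5 had log2 fold changes of 1.24 with and 1.19 without Das (interaction 0.048, SE 0.41, adjusted p = 0.996). HERPUD1 rose from 117 ± 2.65 to 499 ± 145 CPM without Das, by 2.10 (interaction -0.82, adjusted p = 0.121, with the block 0.00858). DNA replication fell in both settings, with 17 of 33 lower with Das and 7 of 33 without it. The median interaction was -0.29, and 0 of 33 passed with edgeR (3 lower with the block, 13 in the numbered libraries). MCM3 had log2 fold changes of -0.72 with and -0.21 without Das (interaction -0.52, SE 0.085, adjusted p = 0.0157, with the block 0.00278). In the mitosis list 6 of 28 were lower with Sal alone (19 with the block, median -0.59) and 0 in S + D against Das (3 with the block, median -0.19). The interaction was positive in all 28, with a median of 0.37. By gene, 0 passed with edgeR (5 higher and 0 lower at an unadjusted p under 0.05), and 0 with DESeq2 or the block. In the numbered libraries 5 interactions were higher and 0 lower. Das alone stood below the control by a median of -1.13 over these genes. Chemokines and NF-kB targets had a median of -0.49 without Das and 0.28 with it, and a median interaction of 0.67. By gene, 0 of 22 interactions passed with edgeR (2 higher and 0 lower with the block, 6 and 0 in the numbered libraries). TNFAIP3 stood at 14.3, 10.8, 9.94 and 11.2 CPM in the control and at 10.2, 10.2, 9.08 and 10.9 CPM with Sal, and its interaction was 1.19 (adjusted p = 0.0214, with the block 0.000936). BIRC3 had 1.03 (0.0121, with the block 0.00101), from log2 fold changes of -0.47 without and 0.57 with Das.

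**Figure D4:**
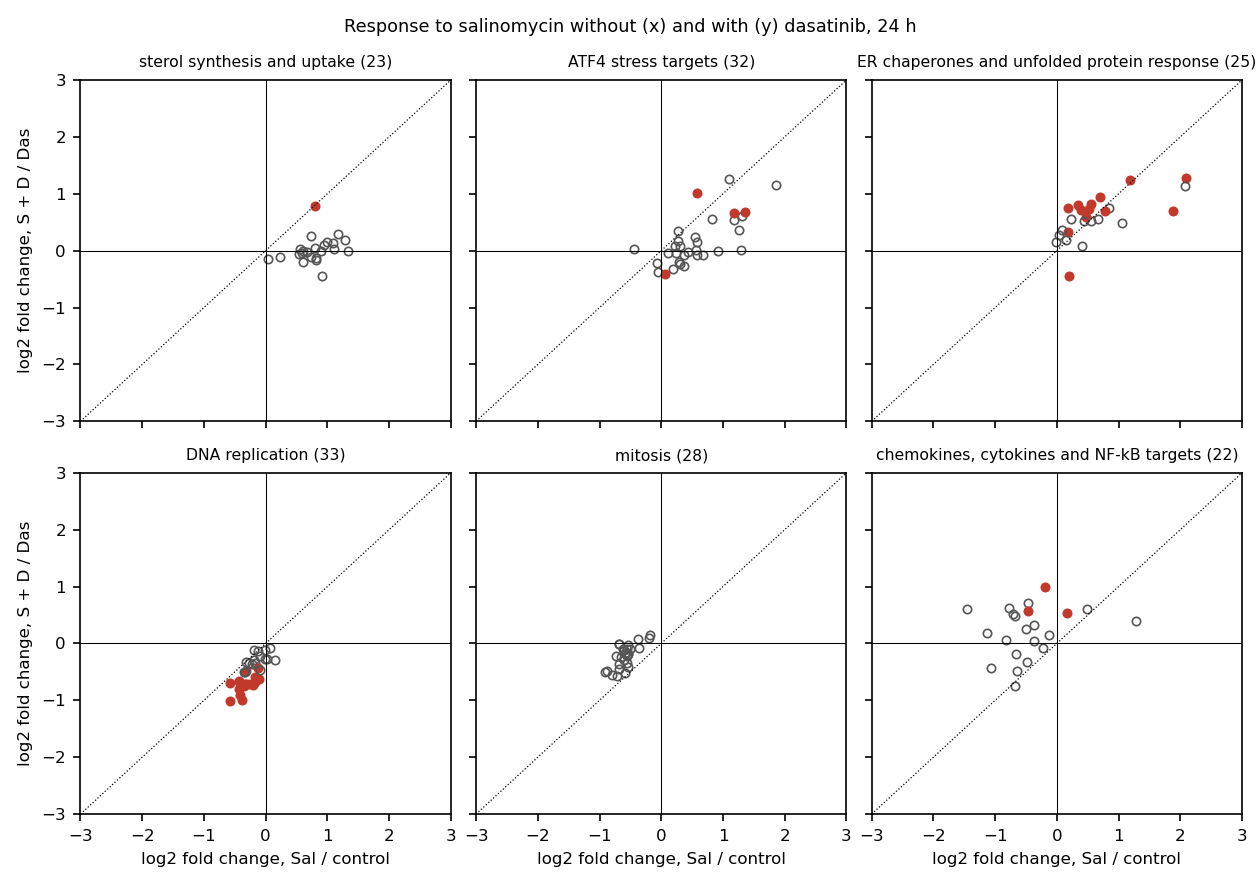
Each panel is a gene list and each point a member, placed by its log2 fold change with Sal against control (x axis) and with S + D against Das (y axis) at 24 h, with filled points at an adjusted p under 0.01 on the y axis and the dotted line marking equal responses. Sterol genes lie below the dotted line, with medians of 0.80 on the x axis and -0.013 on the y axis, and all 28 mitosis genes lie above it.

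**Figure D5:**
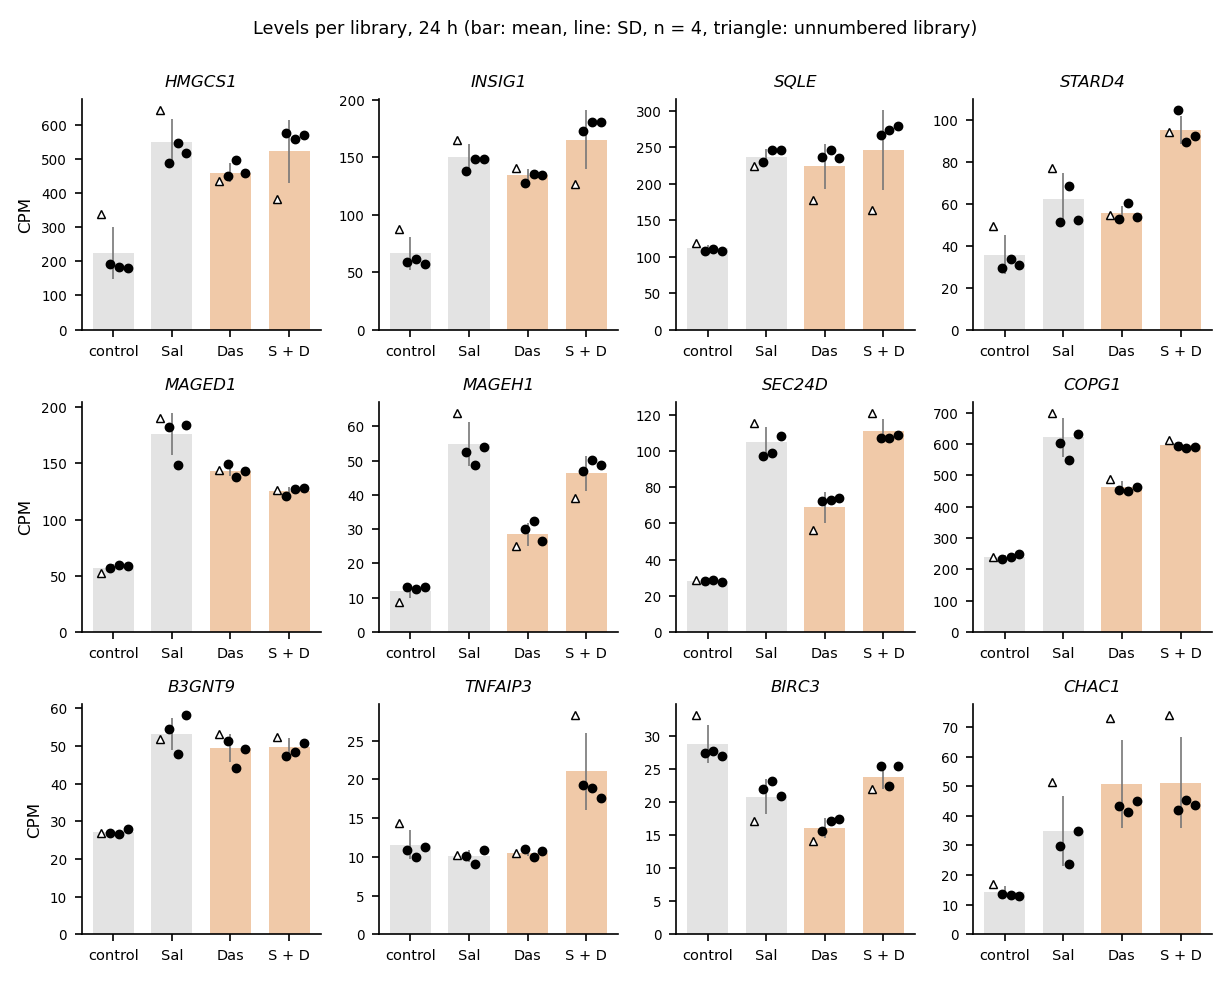
Levels of 12 genes in CPM in each library of control, Sal, Das and S + D at 24 h, where circles are replicates 1 to 3, triangles the unnumbered library, and bars and lines the mean and SD of 4 libraries. In MAGED1 the Sal libraries lie above the control, while the S + D libraries lie below those of Das, and TNFAIP3 and BIRC3 rise from Das to S + D and not from control to Sal.

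Some genes named by the rule passed in the numbered libraries, but neither in all libraries nor with the replicate block. Besides the sterol genes above, they were FASN (log2 fold change -0.49), TFRC (-0.25), MT1X (-0.40), CCNB1 (-0.21), BRCA1 (-0.27), DUSP6 (-0.70), BCL2L11 (-0.30), EGFR (-0.24) and CXCL8 (1.03). FASN and DUSP6 also passed with a batch term for the unnumbered libraries. Every gene named by the rule that passed in all libraries passed in the numbered ones too.

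Some of these genes share exons with neighbours, and without a stated use of the strand their reads cannot be told apart. The share of exon bases that also belong to another annotated gene was 63.2% for FTH1, 49.3% for ASNS, 41.3% for BCL2L1, 39.6% for DDIT3, 37.7% for HMGCS1, 37.1% for CCNE2 and 31.7% for CTSZ. Among the other genes described with their own values it was below 31.7%.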

How the data were processed

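The authors sequenced RNA of MDA-MB-468 cells and, per the labels and methods, used bcl2fastq 2.19, aligned reads with STAR 2.5.2 to GRCh37 and ran Cufflinks 2.1.1 and DESeq2. They deposited raw counts per Ensembl gene (48804 genes). How reads were counted (program, annotation, strand) is not given in the sources used here. Of the identifiers 46537 matched the annotation that gave symbols and coordinates. Depth, the total count per library, ran from 25692561 to 40576754 in the 8 libraries compared.

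The counts of the 16 libraries of 24 h were fitted together with edgeR 4.0.16 in R 4.3.3 (TMM, filterByExpr with a minimum count of 10, 16357 genes, quasi-likelihood test, Benjamini-Hochberg adjustment, 12 residual degrees of freedom). Cutoffs were an adjusted p under 0.01 and, for the counts past both, an absolute log2 fold change above 1.5. Levels are CPM with TMM factors, and genes too low for the fit were compared by an exact permutation test. The procedure was tested on simulated data. The simulated libraries held no shift of the unnumbered library, so that test does not cover the shift seen here. Members, lists and tests were chosen with earlier results of these data known, and the vesicle coat and actin lists after the values of their genes had been seen.

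Named genes were the 10 largest rises and falls past both cutoffs without overlap and with a mean of at least 1 CPM, the 2 members of each list with the smallest p in each direction, fixed anchor genes and the interactions past both cutoffs. Others are said to be chosen after their values were seen, and further list members serve as examples. ACACA, NCOA4 and PECAM1 matched no row and were not analysed here. Some further genes of the lists are not reported here and were left out of them. Promoter sequences came from RefSeq (GRCh38.p14), 1 window per symbol.

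The labels number the replicates but state no pairing between groups, so a pairing by number was checked. Deviations from the group means of same-numbered libraries correlated at 0.156 or more in every pair of groups, and at 0.613 to 0.691 for the unnumbered ones. Between Das and S + D, same-numbered pairs 1 to 3 gave 0.175 to 0.364 and different numbers 0.200 to 0.322, so the numbers 1 to 3 add little beyond the split of the unnumbered libraries.

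Alternatives were RLE size factors, no filter, the replicate block, a batch term for the unnumbered libraries, numbered libraries only, DESeq2 1.42.0, only the 8 libraries compared, all 32 libraries, the adjusted p alone, and each library left out in turn.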

Additional observations from a re-analysis of the deposited data

Results flagged for a closer look

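In some genes 1 library of a group lay far from the other 3, by Dixon's ratio of the gap to the nearest library to the range of the group against its 95% critical value. Chance alone passes about 1 in 20 groups. Of 233 pairs of a named gene and a group 60 passed, and in 57 of them the library was the unnumbered one. With Das, the unnumbered library was the highest for MFSD2A (0.832), CCN2 (0.971), HERPUD1 (0.866), ELOVL1 (0.941), BYSL (0.851), OAS1 (0.927), CHAC1 (0.890), DDIT3 (0.964), ASNS (0.951), HSPA5 (0.883), SQSTM1 (0.843), HMOX1 (0.881), NQO1 (0.937), CCNB1 (0.889) and EGR1 (0.837), with the ratio in parentheses. It was the lowest with Das for LINC01671 (0.942), SLC48A1 (0.859), POLR1B (0.859), KRT5 (0.927), SQLE (0.831), SCD (0.873), LRP6 (0.890), BCL2L11 (0.902), SEC24D (0.927) and KRT4 (0.912). With S + D, the unnumbered library was the highest for MFSD2A (0.962), LOX (0.933), IL6R (0.849), ELOVL1 (0.931), EXO1 (0.873), POLR1B (0.857), TNFAIP3 (0.835), CHAC1 (0.902), DDIT3 (0.920), ASNS (0.831), HSPA5 (0.902), SQSTM1 (0.884), MT1X (0.958), CCNB1 (0.875), E2F2 (0.836), EGR1 (0.896), HK2 (0.953), VEGFA (0.908) and SEC24D (0.857). It was the lowest with S + D for CTH (0.837), UGDH (0.890), BCL2L1 (0.971), KRT5 (0.887), HMGCS1 (0.908), INSIG1 (0.856), SQLE (0.888), SCD (0.911), MYC (0.831), LRP6 (0.869), KDELR2 (0.941), GPNMB (0.833) and KRT4 (0.971). In the numbered libraries, MCM2 was high in S + D replicate 2 (0.876), MAGED1 low in S + D replicate 1 (0.844) and ACTB low in Das replicate 2 (0.839). The part of these libraries in the results was not tested beyond the fits with the block and without them.

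The response to Sal differed with and without Das, by the interaction term of the edgeR fit, for MAGED1 (-1.82 on the log2 scale), MAGEH1 (-1.51), SEC24D (-1.19), COPG1 (-1.01) and B3GNT9 (-0.96). In MAGED1, MAGEH1, SEC24D, COPG1 and B3GNT9 all 4 Sal libraries lay above all 4 control libraries. With Das, the S + D libraries lay above those of Das in MAGEH1, SEC24D and COPG1, below them in MAGED1, and overlapped them in B3GNT9.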

How the results depend on the processing

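Of the genes past both cutoffs in S + D against Das (22 higher, 30 lower), the replicate block gave 56 and 47, a batch term for the unnumbered libraries 56 and 49, the numbered libraries 47 and 57, the 8 libraries alone 27 and 19, and the adjusted p alone 659 and 729. Leaving out 1 of the 16 libraries gave 14 to 48 higher and 21 to 42 lower, the most without the unnumbered Sal library. For the difference between the responses to Sal with and without Das (0 higher, 2 lower), the block gave 2 and 6, the batch term 2 and 11, the numbered libraries 2 and 18, DESeq2 2 and 6, all 32 libraries 0 and 1, and the adjusted p alone 0 and 5. Leaving out 1 library gave 0 higher in each case and 1 to 4 lower. The cause of these shifts was not tested. RLE size factors, no filter on low counts and, for S + D against Das, DESeq2 (27 and 37) kept both counts within 1.5 times. Of the 52 genes past both cutoffs, 38 also passed in the fit of the 8 libraries, 38 with all 32, 43 with DESeq2 and 42 in the numbered libraries.

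No gene named by the rule that passed the test changed its direction under any alternative run. For the genes named by the rule, the block changed the calls of 8 in S + D against Das (DDIT3, SCD, MYLIP, SQSTM1, FTH1, SKP2, EGR1 and VEGFA), all from not passing to passing. The list members FTL, CANX, CRELD2, HSP90B1 and SDF2L1, named as examples, also passed with the block and not in the fit without it. With 4 libraries a group, of which the unnumbered one stands apart, fewer genes passed without a term for that shift than with one, and genes of a few reads had wide errors.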
